A study of Homo sapiens with 24 samples.

Results

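Vehicle-treated cultures of human sensory neurons, the untreated reference state of the study, were described across 6 of its 24 libraries, namely every library labelled Vehicle, with 1 from each of 6 differentiation batches. The cultures came from the human embryonic stem cell line H9 (labelled H9WAO9, genotype WT), which was taken over 12 days to vagal neural crest cells, over 4 days to spheroids and over 6 days to sensory neurons, and was then matured for 2 to 3 weeks. Vehicle cultures received PBS with 0.1% bovine serum albumin for 5 days. The other 18 libraries, 3 per batch, came from the same batches after 5 days of TGF-β (2 ng/ml), IL-4 (10 ng/ml) with IL-13 (3 ng/ml), or IL-6 (at a dose not given in the sources used here), all with the same 0.1% albumin. They entered the test between batches, where the spread within a batch had to be known. They were also set beside the vehicle library of the same batch, to see whether its levels went with the batch. No effect of a treatment is reported. All libraries share 1 cell line, and no sorting step is given, so that each level is that of a whole mixed culture. Fewer cells of a type and less RNA per cell of that type cannot be told apart in such libraries.

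Neural crest cells leave the dorsal neural tube of the embryo and give rise to sensory and autonomic neurons, Schwann cells and satellite glia, melanocytes and part of the mesenchyme of the head and neck. Vagal neural crest lies at the level of the hindbrain, and the sensory neurons of the jugular ganglion derive from it. The dorsal midline of the brain also forms the choroid plexus, a ciliated epithelium that makes cerebrospinal fluid and secretes transthyretin. A stem cell culture directed to neural crest can therefore hold several of these lineages side by side, and the question addressed here is which of their markers were present in vehicle cultures, at which level, and how far that level differed from batch to batch.

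Between 33663195 and 39425309 reads were counted on genes in a vehicle library, so that sampling error was small for all but the rarest transcripts. A count of 0 allowed up to 3 reads in a library, a limit that covers counting error only. The level of a gene is given as log2(normalized counts + 1), where counts were divided by a size factor for the depth of the library, and its spread as the SD of this level over the 6 batches. Levels of different genes were compared only in TPM, which divides counts by exon length and scales each library to the same sum. Among 21011 entries with a mean count of at least 10, the median spread was 0.390 on the log2 scale over 6 batches and 0.280 over batches 2 to 6. A spread above 1 was found in 11% of these entries, and in 7.07% without batch 1. Batch 1 was the highest or the lowest of the 6 libraries in 66.6% of them, and batch 5 in 12.8%. The share was 21.8% for batch 2, 37.4% for batch 3, 33% for batch 4 and 28.4% for batch 6. Separate shares for the highest and for the lowest library were not computed. Counts below of list genes highest or lowest in a batch thus have no exact background and only describe the lists.

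Vehicle libraries were first compared with the 3 treated libraries that carried the same batch label, over 20962 genes and after the mean of each treatment group was taken out. These correlations are across genes, which are not independent replicates. The mean correlation with the own batch was 0.84 in batch 1, 0.70 in batch 3, 0.36 in batch 5 and 0.68 in batch 6. Batches 2 and 4 stood apart. The vehicle library of batch 2 correlated at 0.01 with the treated libraries of batch 2 and at 0.53 with those of batch 4 and 0.50 with those of batch 3. The vehicle library of batch 3 in turn correlated at 0.58 with the treated libraries of batch 4. The vehicle library of batch 4 correlated at 0.16 with its own batch and at 0.47 with batch 2. The labels were kept as given. Whether the batch numbers of these libraries were exchanged was not tested, so that values for batches 2 and 4 are those of the libraries so labelled, and the test between batches and the match of marker levels are given with and without batches 2 and 4.

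Of the marker genes that define the intended culture, those of neurons were present in every vehicle library, and the glial marker was close to absent. UCHL1, which encodes the neuronal hydrolase PGP9.5, had a mean TPM of 1343 ± 304 (SD, n = 6), and TUBB3, which encodes β3-tubulin, one of 442 ± 182 (SD, n = 6). The sensory transcription factor genes ISL1 and POU4F1 followed at TPM values of 91.5 ± 66.0 and 26.5 ± 18.8 (SD, n = 6 each). COL1A1, a chain of type I collagen and a marker of mesenchyme, reached 1552 ± 744 TPM and COL3A1, which encodes type III collagen, 742 ± 479 TPM (SD, n = 6 each). SOX10, the transcription factor gene of crest-derived glia, stood at 0.343 ± 0.184 TPM (SD, n = 6). In order of mean TPM, COL1A1 and UCHL1 were closer to each other than their SDs, and the ranks ran from 33 for COL1A1 to 15667 for SOX10 among all genes with a length.

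Raw counts of TUBB3 (chromosome 16, 89921925 to 89936097 of GRCh38.p14) were 7989, 30785, 34023, 33515, 25568 and 21866 in batches 1 to 6. Batch 1 lay below all others, and the highest library exceeded it 4.28-fold after normalization. UCHL1 (chromosome 4, 41256928 to 41268455) had counts of 16919, 28665, 28032, 24165, 19551 and 23557, which were again lowest in batch 1 but spanned only 1.66-fold. The counts of POU4F1 (chromosome 13, 78598362 to 78603552) were 103, 1255, 1730, 1428, 751 and 305, and those of ISL1 (chromosome 5, 51383448 to 51394730) were 226, 2599, 4304, 2100, 1576 and 1169. Both factors were lowest in batch 1, next lowest in batch 6 and highest in batch 3, over ranges of 16.9-fold and 19.1-fold.

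SOX10 (chromosome 22, 37972312 to 37984555) was counted 17, 11, 12, 3, 11 and 27 times in batches 1 to 6, and its annotated span overlaps POLR2F. With the strandedness of the libraries unknown, even these few reads could not be assigned with certainty. COL1A1 (chromosome 17, 50184101 to 50201631) had counts of 220990, 137143, 97816, 81104, 91784 and 46617, highest in batch 1 and lowest in batch 6. The table lists COL3A1 (chromosome 2, 188974373 to 189012746) in 2 entries, of which the larger was used and held 16651, 85607, 37669, 31661, 41802 and 21589 reads. It was highest in batch 2 and lowest in batch 1. The smaller entry held 1980, 44657, 17610, 8800, 14157 and 8576 reads, and the larger held between 65.7% and 89.4% of their sum. Summed or apart, the COL3A1 entries had the same highest and the same lowest batch.

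**Figure D1:**
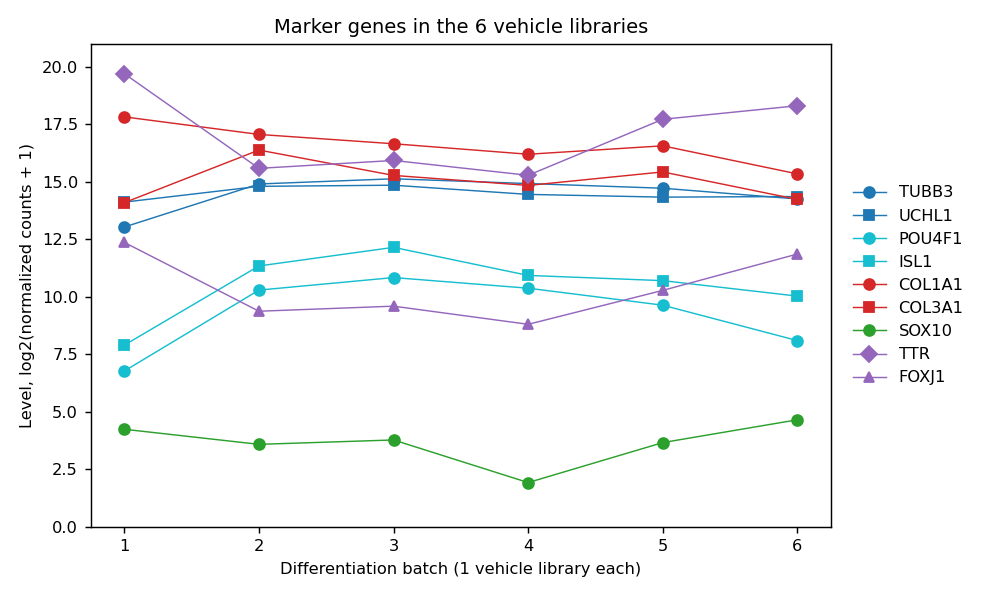
Levels of 9 marker genes, as log2(normalized counts + 1) on the y axis, in the vehicle library of each differentiation batch on the x axis. The neuronal genes TUBB3, POU4F1 and ISL1 had their lowest point in batch 1, where TTR and FOXJ1 of the choroid plexus and of motile cilia had their highest, and SOX10 stayed at a level of 4.65 or less. Lines join points for the eye only, as batches have no order.

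Because each batch held 1 vehicle library, differences between batches were tested on all 24 libraries with treatment as a covariate (edgeR's quasi-likelihood F test, Benjamini-Hochberg adjustment). At an adjusted p under 0.05, 56.8% of 29377 entries differed between batches. These entries had a total of at least 10 reads over the 24 libraries. Counts within the marker lists are of genes that averaged 10 or more reads in vehicle. The share among all entries of that level was not computed, so that 56.8% is only a rough background for the list counts. Of the 7 markers, TUBB3 (adjusted p = 2.6e-07), UCHL1 (8.2e-05), POU4F1 (7.2e-11), ISL1 (5.4e-07), COL1A1 (0.0010), COL3A1 (0.0017) and SOX10 (0.016) all did by edgeR's adjusted p. Without batches 2 and 4, 15874 of 28323 entries differed.

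The 16 pan-neuronal genes moved nearly as a block. Their mean level was 12.04, 14.30, 14.53, 14.15, 13.81 and 13.30 in batches 1 to 6, and each of the 16 had its lowest level in batch 1. In 12 of the 16 the highest level was in batch 3. Their summed TPM was between 3716 and 22021 per library. All 16 differed between batches by edgeR's test. Spread exceeded 1 in 6 of 16 over the 6 batches and in 1 of 16 over batches 2 to 6, so that a spread above 1 rested on batch 1 in most of these genes. The same library held the largest shares of mitochondrial and TTR reads, given below, whose part in the lower neuronal levels was not tested.

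STMN2, which encodes a microtubule-destabilizing protein of growing axons, was the highest of the list with 3285 ± 1435 TPM (SD, n = 6), followed by NEFL at 2213 ± 1594 and the growth cone gene GAP43 at 2035 ± 975 TPM. Counts of STMN2 were 12327, 69312, 70568, 63940, 50352 and 48282. The neurofilament genes NEFH and NEFL had the widest spreads, 1.40 and 1.40. NEFL was counted 9299, 95377, 139943, 80621, 47318 and 32898 times, with a 15.1-fold range. The microtubule protein gene MAP2 (0.70) and UCHL1 (0.29) spread least. ELAVL4, an RNA-binding protein of postmitotic neurons, was nearly level in batches 2 to 6, between 11.86 and 12.24, with batch 1 at 9.83.

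Sensory neuron genes were more uneven. Of 23 listed genes, 20 averaged 10 or more reads, and their mean level was 7.88, 9.64, 9.77, 9.43, 9.17 and 8.44 in batches 1 to 6. Batch 1 was the lowest for 12 and batch 6 for 5 of the 20, and 18 of them differed between batches. The transcription factor gene DRGX, which acts in the pain and itch lineage, was counted 72, 1754, 1778, 1235, 783 and 411 times and had the widest spread of the list, 1.75, with POU4F1 next at 1.58. Batch 1 was the lowest for both genes.

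By level, TAC1 (the precursor of substance P) led with 163 ± 166 TPM, ahead of the vesicular glutamate transporter gene SLC17A6 with 149 ± 75.4 and of P2RX3, an ATP receptor of sensory endings, with 94.8 ± 55.3 TPM (SD, n = 6 each). Batch 2 had the most TAC1, with 6474 reads against 471 in batch 1. PRDM12, a factor of nociceptor fate, was low at 4.81 ± 2.87 TPM (SD, n = 6). TRPV1, the capsaicin receptor, was the most even of the list. Its counts were 394, 381, 349, 480, 425 and 498, its spread was 0.13, and its differences between batches did not pass the test (edgeR's adjusted p = 0.40). The TRPV1 span overlaps that of SHPK. NTRK2 was nearly as even, with a spread of 0.28, and its level in batch 1 (13.51) lay within the range of the other batches.

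Genes of autonomic neurons were present alongside. DBH, which makes noradrenaline from dopamine, was counted 22, 1036, 201, 196, 114 and 82 times and was highest in batch 2, with a spread of 1.80. CHAT, the enzyme that makes acetylcholine, was highest in batch 4, with counts of 23, 177, 124, 428, 143 and 44, and its gene shares its locus with SLC18A3. Tyrosine hydroxylase, TH, led the list at 152 ± 84.5 TPM (SD, n = 6). HAND2, a factor of sympathetic neurons, had no read in any of the 6 libraries. Of the 13 genes that averaged 10 or more reads, 11 were lowest in batch 1, and 7 were highest in batch 2.

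Markers of central neurons were low. TBR1, a factor of cortical neurons, was counted 0, 9, 15, 8, 3 and 16 times in batches 1 to 6. SLC17A7, a vesicular glutamate transporter gene that cortical and some sensory neurons share, was an exception at 20.2 ± 12.9 TPM (SD, n = 6), and it was lowest in batch 1 (8.21) and highest in batch 3 (10.81). The vesicular GABA transporter gene SLC32A1 stood at 1.74 ± 0.994 TPM.

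The genes that define peripheral glia were low. SOX10 was close to 0, and CDH19 of Schwann cell precursors had 0, 10, 2, 2, 5 and 0 reads. Other genes of the list that neurons or progenitors also use were well above these. S100B, a calcium-binding protein, had 109 ± 63.6 TPM (SD, n = 6) and was lowest in batch 1 (8.83) and highest in batch 4 (11.33). NGFR, the low-affinity neurotrophin receptor of crest cells and sensory neurons, had counts of 284, 2992, 3314, 2808, 1127 and 463 and ranged 11.7-fold, with batches 1 and 6 lowest. The list as a whole had no common batch order, with 5 of its 12 counted genes lowest in batch 1 and 4 highest in batch 3.

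GFAP, an intermediate filament of astrocytes and some glia, was counted 58, 63, 10, 629, 254 and 56 times and spread by 1.99, the widest of the glial lists. SLC1A3, the glutamate transporter GLAST of radial glia and astrocytes, had 3274, 2764, 378, 10206, 7544 and 1897 reads. Both were highest in batch 4, next in batch 5, and lowest in batch 3. The other glutamate transporter gene, SLC1A2, went another way and was lowest in batch 1 (10.00) with 11.68 to 12.22 in batches 2 to 6. AQP4 and OLIG1 stood at 0.757 and 1.41 TPM, and NKX2-2 had no read.

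Pigment genes were transcribed in every batch. PMEL, a scaffold protein of melanosomes, had counts of 4179, 4086, 2481, 1802, 3847 and 17184, and TYR, tyrosinase, 5673, 1549, 2156, 1046, 3462 and 7754. Both were highest in batch 6 and lowest in batch 4. MITF, the pigment cell factor gene, was highest in batch 1 with a level of 10.42 and lowest in batch 4 with 8.11. TYRP1 was 27.9-fold higher in batch 6 than in batch 4. MLANA, a melanosome protein gene, had 0, 5, 10, 8, 23 and 12 reads, and SOX10, which crest-derived melanocytes require, was near 0 as given above. From a list added after these values were seen, RPE65 of retinal pigment epithelium had counts of 2525, 414, 685, 504, 784 and 840 and was highest in batch 1, and SERPINF1, which pigment epithelium and other cells secrete, reached 372 ± 263 TPM (SD, n = 6). The list had no common order, as its 10 genes that averaged 10 or more reads were highest in batch 1 for 3, in batch 6 for 3, in batch 3 for 2 and in batch 4 for 2.

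Mesenchymal genes were abundant, but the fibroblast list did not move as 1 block. Its 16 genes had a summed TPM between 3539 and 7791 per library and a mean level of 11.92, 12.92, 12.29, 12.03, 12.56 and 11.24 in batches 1 to 6. Batch 1 was the highest for 7 and batch 2 for 7 of the 16. Batch 6 was the lowest for 7, and batch 1 for 4. 15 of the 16 differed between batches.

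Genes of type I collagen were highest in batch 1. COL1A2, the second chain of this collagen, was counted 141413, 102763, 69471, 112978, 109088 and 71017 times and spread by 0.45, less than COL1A1 at 0.83. VIM, the intermediate filament vimentin, had a level of 16.44 in batch 1 and of 15.54 to 15.75 in the others. A pair of proteoglycan genes of connective tissue went the opposite way. LUM, lumican, was counted 246, 8134, 2405, 2033, 2537 and 427 times and DCN, decorin, 306, 5731, 2206, 1629, 2679 and 665 times, both highest in batch 2 and lowest in batch 1. The range was 31.4-fold for LUM and 17.8-fold for DCN, and their spreads of 1.88 and 1.53 were the widest of the list. In batch 1 the culture thus had the most COL1A1 together with the least LUM and DCN.

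**Figure D2:**
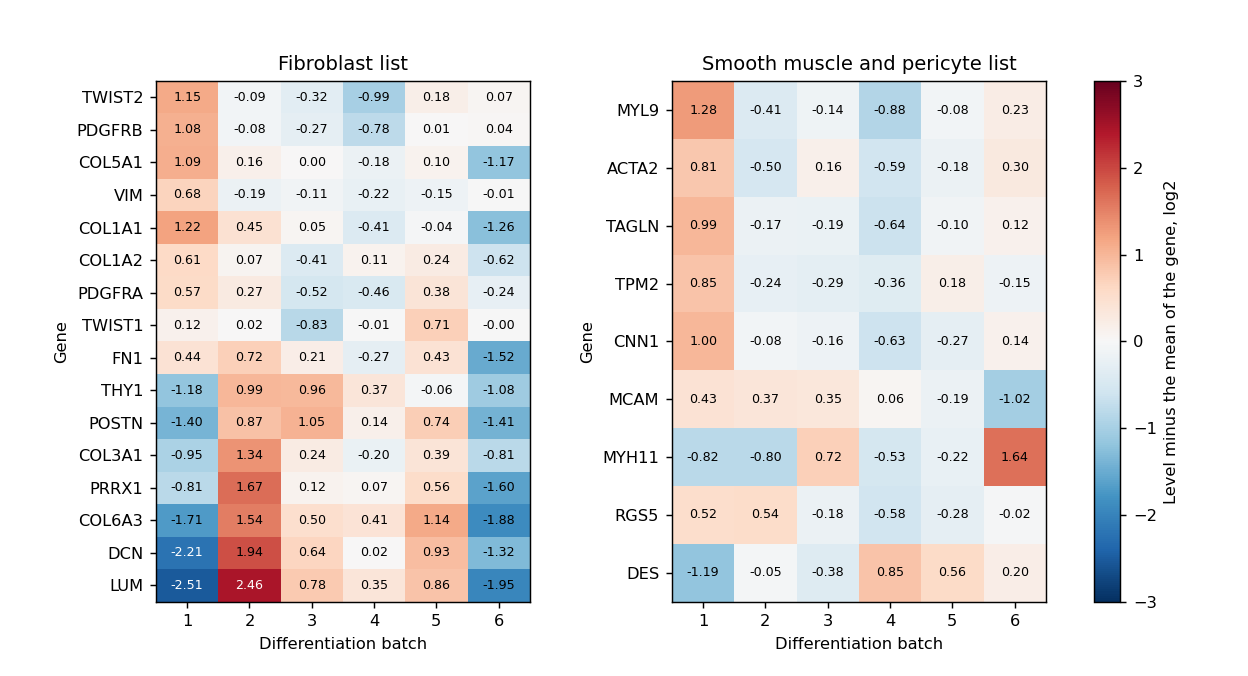
Levels of the fibroblast genes (left) and of the smooth muscle and pericyte genes (right) in the vehicle library of each batch, as the difference from the mean of the gene on the log2 scale. Genes are ordered by batch 1 minus batch 2. In batch 1, COL1A1 and MYL9 lay above their means and LUM and DCN below, and in batch 6 COL1A1, LUM and DCN were all low.

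The most abundant contractile genes of smooth muscle were highest in batch 1 as well. TAGLN, transgelin, had 380.5 ± 128 TPM, MYL9, a myosin light chain gene, 330.3 ± 161 TPM and TPM2, β-tropomyosin, 186 ± 51.8 TPM (SD, n = 6 each). Counts of MYL9 were 15675, 5113, 5822, 3953, 6052 and 8857, and those of the smooth muscle actin gene ACTA2 were 12646, 5386, 8018, 5446, 6328 and 10441. Of the 9 genes, 6 were highest in batch 1 and 6 lowest in batch 4. MYH11, the myosin of mature smooth muscle, was low at 0.257 ± 0.218 TPM and was highest in batch 6. RGS5 of pericytes had 95.0 ± 25.6 TPM, and its differences between batches did not pass edgeR's test (adjusted p = 0.089). The spans of ACTA2, TAGLN and MYH11 each overlap another annotated gene.

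Among cartilage and bone genes, COL2A1, the collagen of cartilage and of the embryonic notochord and eye, stood at 147 ± 41.0 TPM (SD, n = 6) and was highest in batch 1, while ACAN, the proteoglycan of mature cartilage, stood at 0.475 ± 0.456 TPM and SP7 of osteoblasts had 0, 0, 0, 3, 2 and 2 reads. Skeletal muscle factors were near 0, with 9, 7, 11, 8, 25 and 12 reads of MYOD1, 2, 4, 11, 12, 8 and 2 of MYOG and none of MYF5.

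Epithelial genes were led by the keratin genes KRT18 at 217 ± 114 TPM and KRT8 at 153 ± 71.6 TPM (SD, n = 6 each). KRT8 had counts of 17994, 6529, 7757, 5788, 6468 and 6921, with batch 1 3.52-fold above batch 4, and KRT7 of simple ducts 3947, 474, 953, 868, 1204 and 737. Of the 10 genes that averaged 10 or more reads, 8 were highest in batch 1. EPCAM, an adhesion molecule of epithelia and of stem cells, did the opposite, with its lowest level in batch 1 (9.30) and its highest in batch 3 (10.68). CDH1, E-cadherin, was at 4.77 ± 2.20 TPM and was lowest in batch 6 (5.84). KRT8 and KRT18 have many processed pseudogene copies and neighbour each other, so reads may have been split or shared between entries. Genes of stratified epithelium were at or near 0. KRT14 and DSG3 had no read, and KRT5 had 0, 0, 3, 0, 0 and 7 reads.

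The gene with the highest mean TPM outside the mitochondrial genome was TTR, which encodes transthyretin, the thyroid hormone carrier that choroid plexus secretes. It was not the highest in every library. In batches 2, 3 and 4 the whole ciliated and choroid list, TTR included, summed to 2965, 3689 and 2577.5 TPM. The actin-binding protein gene TMSB10 had at least 4966 TPM in each library. TTR (chromosome 18, 31591877 to 31598821) ranked 7 among all genes by mean TPM and was counted 811781, 49302, 59105, 42984, 204336 and 363725 times in batches 1 to 6. It held 2.13% of all reads in batch 1 and 0.113% in batch 4, a 21.4-fold range after normalization. FOXJ1, the master regulator of motile cilia, had counts of 5016, 663, 730, 480, 1174 and 4159. Both genes were highest in batch 1, then in batch 6, then in batch 5, and lowest in batch 4. RSPH1, DNAH9 and PIFO, genes of the ciliary axoneme and its assembly, had the same highest and lowest batch, so that all 5 genes of the list did. All 5 had spreads above 1, from 1.04 for DNAH9 to 1.77 for TTR, and 3 of 5 still did over batches 2 to 6. Each of the 5 differed between batches (edgeR's adjusted p = 1.6e-08 for TTR and 1.3e-07 for FOXJ1).

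As TTR is also made by liver and pigment epithelium, longer lists of choroid plexus and of motile cilium genes were drawn up after these values were seen. They describe the pattern and are no independent evidence of it. Of 14 choroid plexus genes, 12 were highest in batch 1 and 11 lowest in batch 4, and their summed TPM was between 3368 and 45329 per library. CLIC6, a chloride channel protein, had 390.1 ± 251 TPM and HTR2C, a serotonin receptor of choroid epithelium, 285 ± 242 TPM (SD, n = 6 each). Counts of HTR2C were 31494, 4103, 4876, 3943, 10808 and 13236. KCNJ13, a potassium channel gene of choroid and pigment epithelium, ranged 12.5-fold and was as high in batch 6 (10.48) as in batch 1 (10.52). The forebrain and dorsal midline factors OTX2 and LMX1A spread least, by 0.70 and 0.59. Apart from AQP1, a water channel gene that was highest in batch 4 (12.42), and KCNE2, a channel subunit that was slightly higher in batch 6 (8.76) than in batch 1 (8.50), the list had batch 1 on top.

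All 12 motile cilium genes were highest in batch 1, and 9 of the 12 were lowest in batch 4. GMNC, which starts the program of multiciliated cells, had levels of 12.50 in batch 1, 11.37 in batch 5, 11.33 in batch 6 and 10.08 in batch 4. TEKT1, a protein of ciliary microtubules, had counts of 683, 66, 72, 41, 100 and 439 and the widest spread, 1.62, and DNAI2 of the dynein arm followed with 1.53. CCDC39 spread least, by 0.29. Of liver genes, ALB had 8, 17, 24, 16, 16 and 10 reads (0.566 ± 0.238 TPM), AFP 36, 4, 5, 11, 3 and 2 (0.380 ± 0.456 TPM, SD, n = 6 each), with the most AFP in batch 1, and FOXA2 had none.

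**Figure D3:**
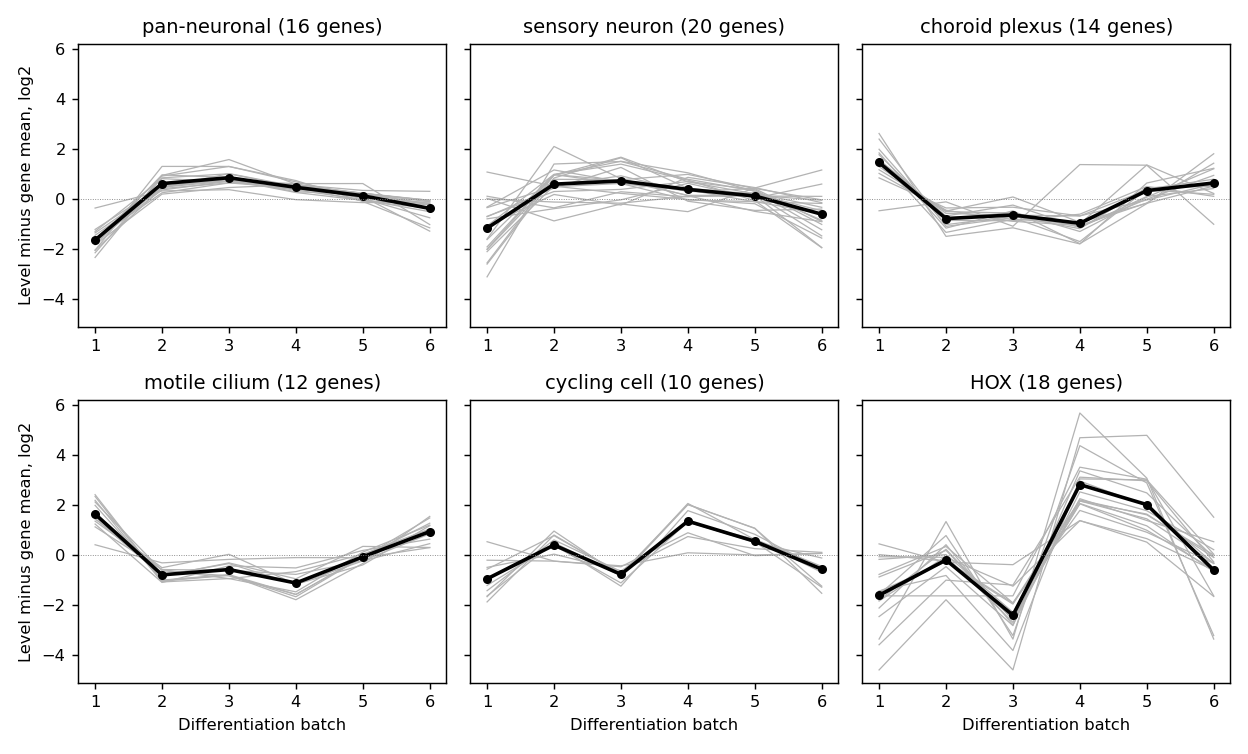
Level of each gene minus its own mean over the 6 vehicle libraries, on the log2 scale, for 6 lists by differentiation batch. Grey lines are genes and the black line with points is their mean. Pan-neuronal genes were lowest in batch 1 where choroid plexus and motile cilium genes were highest, cycling genes were highest in batch 4, and HOX genes were highest in batches 4 and 5.

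Progenitor genes were present at moderate levels. Of neural crest genes, MSX2 (259.9 ± 60.1 TPM), ZIC1 (251 ± 46.0) and MSX1 (202 ± 135 TPM, SD, n = 6 each), factors of the border of the neural plate and of dorsal tissue, were the highest. ZIC1 was among the most even genes of all lists, with a spread of 0.18. PAX3 of dorsal neural tube and crest was highest in batch 6 (11.43) and lowest in batch 1 (9.10), and TFAP2A had counts of 183, 1485, 448, 594, 712 and 1657. FOXD3, an early crest factor, was near 0 with 0, 6, 2, 16, 7 and 2 reads. As a group the crest genes were split, with 5 of 12 highest and 5 lowest in batch 1.

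SOX2, a factor of neural progenitors and glia, was counted 1015, 654, 467, 1844, 1152 and 782 times and was highest in batch 4, and NES, nestin, had a mean level of 13.14 ± 0.41 (SD, n = 6) and was lowest in batch 6. PAX6 of neural tube, eye and forebrain had counts of 2437, 5275, 7363, 3390, 3741 and 6928, with batch 3 on top. PROM1, a membrane protein of progenitors and of epithelia, was highest in batch 1 with a level of 12.94 against 10.59 in batch 3. Genes that define pluripotency were at or near 0, with 0, 4, 2, 0, 0 and 0 reads of POU5F1 and none of NANOG or ZFP42. DPPA4 and DNMT3B were still counted, at 14.6 ± 6.29 and 12.0 ± 7.41 TPM.

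Genes of dividing cells were highest in batch 4 among the vehicle libraries. MKI67, the Ki-67 proliferation antigen, was counted 68, 447, 121, 1000, 457 and 88 times and TOP2A, a topoisomerase of dividing cells, 156, 1056, 338, 2654, 1198 and 285 times. Of 10 cycling genes, 9 were highest in batch 4, and PCNA, a replication clamp that repair also uses, was the exception with its highest level in batch 1 (10.77). All 10 differed between batches by edgeR's test. In the treated libraries the list was highest in batch 2, at a mean level of 10.74 against 8.32 in batch 4, while vehicle had 8.17 in batch 2 and 9.12 in batch 4. MKI67 had 2126 to 3423 reads in the treated libraries of batch 2 and 300 to 748 in those of batch 4. Vehicle and treated means of the list also stood apart in other batches. They were 6.80 and 8.31 in batch 1, 6.99 and 7.79 in batch 3, and 7.19 and 8.12 in batch 6. In batch 5 they were alike, at 8.31 and 8.32. Only in batch 4 was vehicle the higher. Whether an exchange of batch numbers had a part in these gaps was not tested.

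HOX genes, whose transcription factors set the position of cells along the body axis, had a median spread of 1.98. The next widest list had 1.37, and all entries with a mean count of 10 or more had 0.390. Of the 30 lists, that of red blood cells had no gene with such a count and was not ranked. HOX genes were listed after the 10 widest spreads among genes that averaged 100 or more reads were found to include HOXA5, HOXB8 and HOXB5. Their rank by spread thus uses values that chose the list and is no independent evidence of a wide spread. HOXA5 was counted 0, 6, 0, 671, 630 and 76 times in batches 1 to 6, HOXB5 48, 205, 37, 3152, 1501 and 297 times and HOXB8 0, 25, 0, 566, 81 and 0 times. Libraries of batches 4 and 5 held nearly all reads of HOXA5, and those of batches 1 and 3 held none. Of 39 HOX genes, 18 averaged 10 or more reads, and 10 had no read in any vehicle library. The 18 had a mean level of 4.81, 6.22, 4.01, 9.24, 8.44 and 5.82 in batches 1 to 6. Batch 4 was the highest for 17 of them, and batch 3 the lowest for 13.

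Paralogs of the anterior end were present in every batch. HOXB2, a gene of hindbrain segments, had counts of 704, 730, 309, 2164, 1157 and 569 and HOXB3 1489, 3402, 671, 9935, 4764 and 2376, with spreads of 0.92 and 1.30. Spread was wider for HOXB4 (1.70), HOXB5 (2.52) and HOXB8 (3.94). The posterior genes HOXA10, HOXC9 and HOXD10, named after their values were seen, had no read in any vehicle library. The treated libraries of a batch did not share 1 HOX level. Their mean level of the list was between 4.15 and 8.42 in batch 4 and between 4.00 and 7.58 in batch 3, but between 8.01 and 8.77 in batch 5. Of the 18 genes, 13 differed between batches by edgeR's test, and HOXB5 did not pass it (adjusted p = 0.057). Several HOX genes overlap each other or antisense genes, so that their reads could not be told apart with certainty.

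Of other cell types, 6 of 8 endothelial, 3 of 9 immune and 0 of 6 red blood cell genes averaged 10 or more reads, with summed TPM of at most 84.3, 89.4 and 0.515 per library. Endothelial CDH5 had 0, 5, 5, 19, 15 and 4 reads and PECAM1 19, 18, 0, 14, 32 and 40, whereas KDR, a growth factor receptor that neural progenitors can also express, had 43.7 ± 22.4 TPM (SD, n = 6). CD3E, MS4A1 and TYROBP of blood cells had no read, and CD68, a lysosomal protein gene that many cells use, had 25.5 ± 24.2 TPM with its highest level in batch 1. PTPRC, the leukocyte antigen CD45, was counted 507, 611, 452, 162, 425 and 1303 times, and its span overlaps PTPRC-AS1. HBB of red blood cells had no read. Housekeeping genes were even, with a median spread of 0.19 and the widest, 0.42, in RPL13A.

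The mitochondrial genome was highest in batch 1. The 8 mitochondrial genes listed held 4.26% of all reads in batch 1 and between 3.07% and 3.83% in the others, and each of the 8 was highest in batch 1. Stress genes showed no common order. FOS was highest in batch 2 (11.59), EGR1 in batch 1 (11.01) and DDIT3 in batch 6 (10.57). The part of mitochondrial reads in the levels of batch 1 was not tested.

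**Figure D4:**
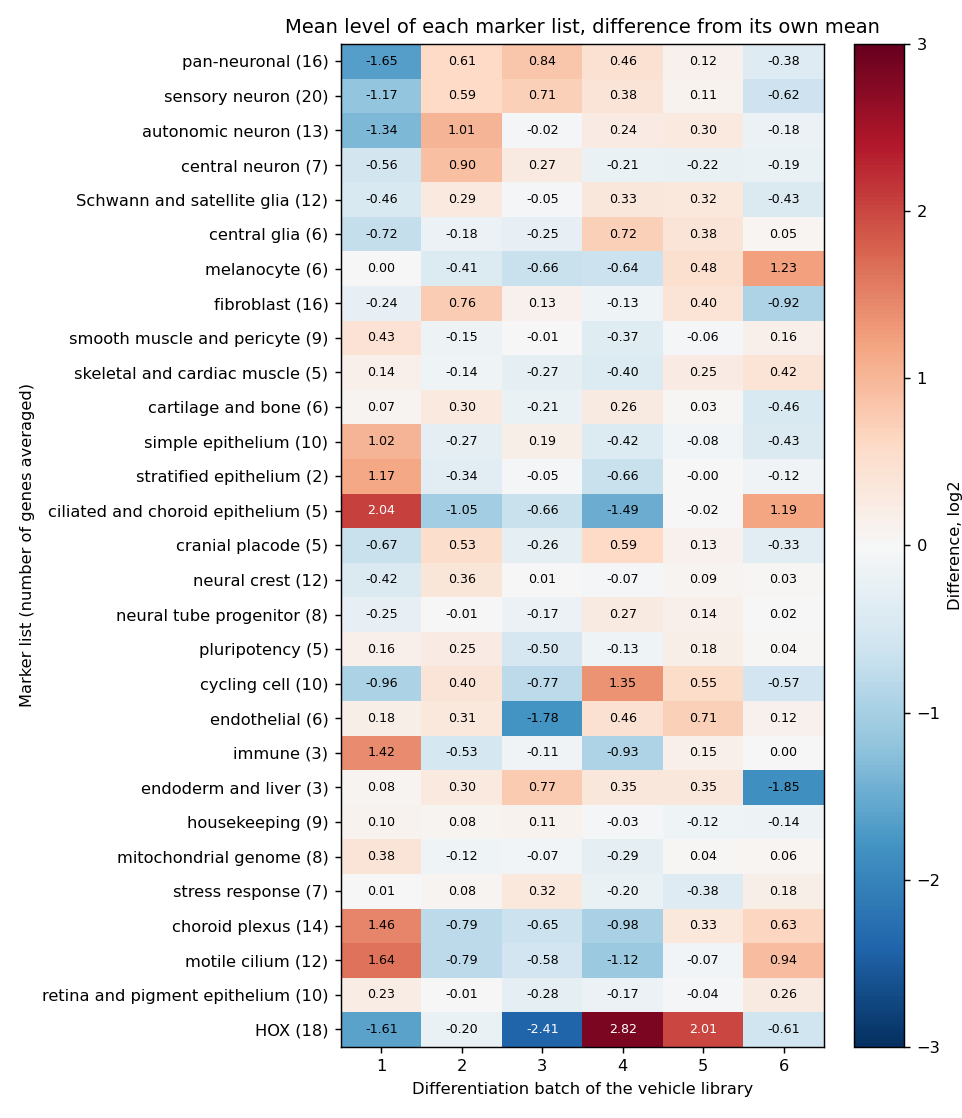
Mean level of each marker list in the vehicle library of each batch (x axis), as the difference from the mean of that list over the 6 libraries on the log2 scale. The number of genes averaged stands beside each list. HOX genes ranged from 4.01 in batch 3 to 9.24 in batch 4, motile cilium genes from 7.20 in batch 4 to 9.96 in batch 1, and housekeeping genes from 13.68 to 13.93.

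To ask which markers varied together, 11 pairs of the 7 markers were correlated over the 6 vehicle libraries (2-sided exact permutation tests, for which the smallest p is 0.0028, with Benjamini-Hochberg adjustment over the pairs). TUBB3 varied with POU4F1 (r = 0.97, exact permutation p = 0.0028, adjusted p = 0.031, rho = 1.00, exact permutation p = 0.0028, adjusted p = 0.031). It also varied with ISL1 by Pearson's r (r = 0.98, exact permutation p = 0.0056, adjusted p = 0.031, rho = 0.94, exact permutation p = 0.017, adjusted p = 0.092). Without the batches farthest from the median of TUBB3, which were 1 and 6, r was 0.99 and 0.92 over 4 libraries. UCHL1 did not pass the adjustment (r = 0.80, exact permutation p = 0.019, adjusted p = 0.071, rho = 0.89, exact permutation p = 0.033, adjusted p = 0.12), with r = 0.80 without batches 1 and 6.

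None of the other 8 pairs passed. TUBB3 with COL1A1 had r = -0.45, exact permutation p = 0.36, adjusted p = 0.66, rho = -0.14, exact permutation p = 0.80, adjusted p = 1.0, with r = 0.06 without batches 1 and 6. The direction rested on batch 1, since r was 0.80 without that batch and between -0.85 and this value over the 6 sets of 5 libraries. TUBB3 with COL3A1 had r = 0.70, exact permutation p = 0.064, adjusted p = 0.18, rho = 0.54, exact permutation p = 0.30, adjusted p = 0.65, and r = -0.15 without batches 1 and 6. TUBB3 with SOX10 had r = -0.50, exact permutation p = 0.24, adjusted p = 0.53, rho = -0.60, exact permutation p = 0.24, adjusted p = 0.65, and r = 0.04 without these batches, on counts of SOX10 near 0. COL1A1 with COL3A1 had r = 0.16, exact permutation p = 0.79, adjusted p = 0.94, rho = 0.09, exact permutation p = 0.92, adjusted p = 1.0, and r = 0.96 without batches 6 and 1. COL1A1 had r = -0.09 with UCHL1, -0.23 with POU4F1, -0.38 with ISL1 and 0.03 with SOX10, at exact permutation p values of 0.88, 0.66, 0.46 and 0.94 and adjusted p values of 0.94, 0.91, 0.73 and 0.94. Their rho lay between -0.14 and 0.03, with exact permutation p values of 0.80 to 1.0 and an adjusted p of 1.0. Without batches 6 and 1 the 4 values of r were 0.64, 0.04, 0.35 and 0.75.

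Across all genes the same 6 libraries were described by the correlation of each gene with TUBB3, COL1A1 and TTR, the last chosen after its values were seen, for which no p is given, since 6 points with 1 library far from the rest give many high values. Correlations with TUBB3 of at least 0.8 were found in 19% of 21010 entries and of at most -0.8 in 19.6%. The pan-neuronal list had 14 of 15 other genes at or above 0.8, and the sensory list 8 of 20. Of fibroblast genes 4 of 16 were at or above 0.8 (DCN, LUM, POSTN and THY1) and 3 of 16 at or below -0.8 (PDGFRB, TWIST2 and VIM), where POSTN, THY1, PDGFRB and TWIST2 are named after their values were seen. Smooth muscle genes had 5 of 9, choroid plexus genes 12 of 14 and motile cilium genes 12 of 12 at or below -0.8.

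Correlations with COL1A1 were less common. They were at least 0.8 in 4.98% and at most -0.8 in 4.42% of entries. Of the other 15 fibroblast genes 2 reached 0.8 (COL5A1 and FN1, named after their values were seen) and none reached -0.8, and no pan-neuronal gene reached either value. Correlations with TTR were at least 0.8 in 15.8% and at most -0.8 in 13.8% of entries. The pan-neuronal list had 15 of 16 at or below -0.8, and the smooth muscle list 5 of 9 at or above 0.8, as did 5 of 8 mitochondrial genes.

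At the level of list means, pan-neuronal genes had r = 0.98 with sensory genes over the 6 libraries and 0.99 over batches 2 to 6, and r = -0.91 and -0.84 with the ciliated and choroid list. The opposite course of neurons and ciliated epithelium was thus seen with and without batch 1. With the fibroblast list the pan-neuronal mean had r = 0.49 over 6 batches and 0.69 over batches 2 to 6. Smooth muscle genes went with the ciliated and choroid list at r = 0.96 and 0.90. Cycling genes went with the neural tube progenitor list at r = 0.92 and 0.89 and with the central glia list at 0.86 and 0.81. They had r = 0.93 and 0.92 with the HOX list, which was added after its values were seen. In the treated libraries, however, the cycling mean was highest in batch 2 (10.74) and the HOX mean in batch 5 (8.34). Autonomic genes had r = 0.85 with the pan-neuronal list over 6 batches but 0.42 without batch 1. All of these points share libraries and depth, and are given as a description with n = 6 or 5.

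Whether these differences belonged to the batch was examined by setting the vehicle level of each marker beside the mean level of the 3 treated libraries of the same batch. For POU4F1 both ran from 6.73 (vehicle) and 6.68 (treated) in batch 1 to 10.80 and 10.68 in batch 3 (r = 0.99, exact permutation p = 0.0083, adjusted p = 0.058, rho = 0.94, exact permutation p = 0.017, adjusted p = 0.12 over the 7 markers). TUBB3 had r = 0.94, exact permutation p = 0.019, adjusted p = 0.068, rho = 0.83, exact permutation p = 0.058, adjusted p = 0.20, and r = 0.49 without the 2 batches farthest from its median. For ISL1 r was 0.82 (exact permutation p = 0.078, adjusted p = 0.18). COL1A1 had r = 0.48, COL3A1 0.27, UCHL1 0.45 and SOX10 0.36, with exact permutation p values from 0.35 to 0.61 and adjusted p values from 0.51 to 0.61. Their rho lay between 0.43 and 0.66 (exact permutation p from 0.17 to 0.42, adjusted p from 0.31 to 0.42). Without the 2 batches farthest from the median of each gene, r was 0.88 for POU4F1, -0.12 for ISL1, -0.97 for COL1A1, 0.65 for COL3A1, 0.94 for UCHL1 and 0.94 for SOX10. No marker passed the adjustment over the 7. Over batches 1, 3, 5 and 6 alone, r was between 0.93 for UCHL1 and 1.00 for ISL1 over the 7 markers (adjusted p from 0.12 to 0.17, exact permutation tests). So few batches cannot give an exact permutation p under 0.05, so that no marker could have passed whatever its values. As batches 2 and 4 were left out because their vehicle and treated libraries did not match, these values are no evidence of a match.

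COL3A1 shows where batches 2 and 4 departed. Its vehicle level was 16.35 in batch 2 and 14.81 in batch 4, and its treated level was 14.17 in batch 2 and 15.93 in batch 4. LUM had 8134 vehicle reads in batch 2 against 1480 to 1896 in its treated libraries, and 2033 in batch 4 against 4260 to 5373. TTR was compared in the same way. Its treated libraries held 505777 to 617939 reads in batch 1, 272252 to 290467 in batch 6 and 26937 to 43617 in batch 2. They ranged widely within the other batches, from 12054 to 61299 in batch 3, from 16522 to 91373 in batch 4 and from 90466 to 233372 in batch 5. All libraries of batches 1 and 6 lay above those of the other batches, while batches 4 and 5 overlapped.

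The first principal component of variance-stabilized counts held 53.0% of the variance of the 6 vehicle libraries, the second 16.8% and the third 15.5%. On the first, batch 1 lay at -95.4 and batch 6 at -20.9, batch 5 at 7.09, and batches 2, 3 and 4 between 36.1 and 36.9. The 10 genes with the largest loading towards batches 2 to 4 included the sensory genes POU4F1, DRGX and NGFR, the neurofilament gene NEFL and LUM. The 10 towards batch 1 included TTR, the complement gene C3 with 28411, 2099, 1674, 2241, 7029 and 4363 reads, ARMC3 with 3842, 348, 467, 234, 835 and 2030, the acute phase gene SAA2 with 485, 8, 3, 9, 55 and 8 and CCL18, a chemokine, with 1240, 8, 2, 10, 103 and 355 reads.

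Ranked by level over all genes with a length, 8 of the 15 highest were mitochondrial, led by MT-CO1 at 35272 ± 5613 TPM (SD, n = 6). The other 7 were TTR (13941 ± 15460.4 TPM), the actin-binding protein gene TMSB10 (7461 ± 1969), the neuronal α-tubulin gene TUBA1A (5807 ± 1719), the ferritin light chain gene FTL (4620.3 ± 1730.1), ACTB (3860.0 ± 513), GAPDH (3669 ± 413) and the elongation factor gene EEF1A1 (3559.7 ± 836 TPM, SD, n = 6 each). TTR alone among the 15 had an SD larger than its mean. FTL was highest in batch 1 with 59560 reads, and TUBA1A lowest there with 83928.

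Ranked by spread among genes that averaged 100 or more reads, the 10 widest included HOXA5 (4.31), OLIG3 (4.05) and HOXB8 (3.94). OLIG3, a factor of dorsal hindbrain and spinal progenitors, was counted 0, 121, 0, 835, 170 and 14 times. Like most HOX genes it was highest in batch 4, and it was at 0 in batches 1 and 3. Chemokine gene CCL18 spread by 3.40 and was highest in batch 1. COL6A5, SGK3, PCDHA11, PROKR1 and HOXB5 were also among the 10, and of these COL6A5, SGK3, PCDHA11 and HOXB5 did not differ between batches at an adjusted p under 0.05 by edgeR. The 10 most even genes spread by 0.03 to 0.04 and included YTHDF2, a reader of RNA methylation with counts of 3297, 3417, 3424, 3734, 3275 and 3810, and DBN1, the actin-binding protein drebrin, with 9414, 10498, 9855, 11461, 9961 and 11545.

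**Figure D5:**
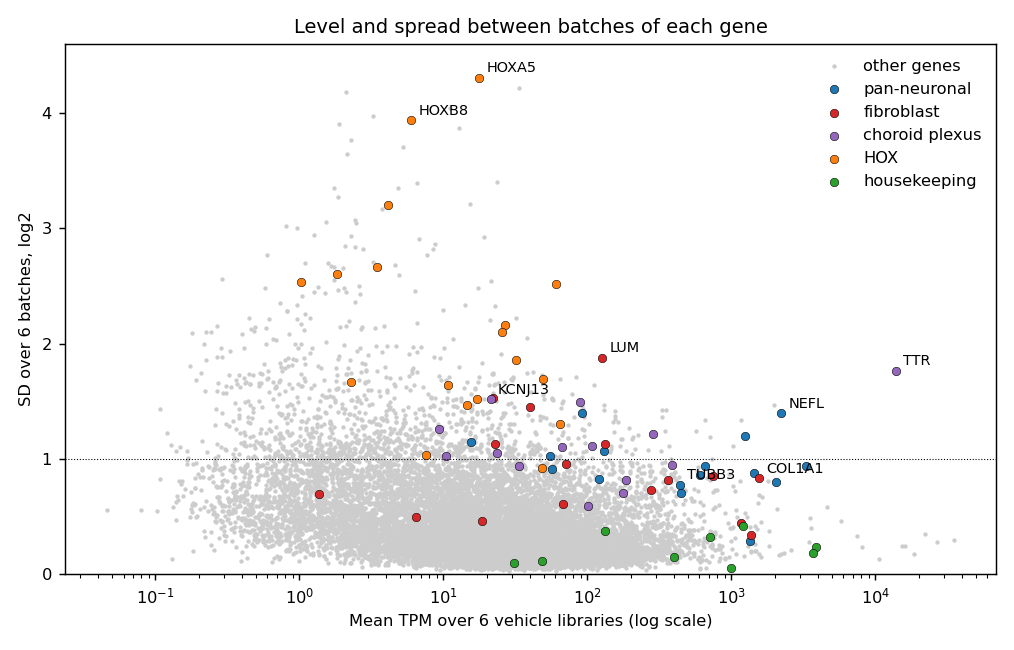
Mean TPM over the 6 vehicle libraries (x axis, log scale) and SD of the level over the 6 batches (y axis, log2) of each gene that averaged 10 or more reads and has a known length. Colored points are 5 marker lists and the dotted line marks an SD of 1. TTR combined a mean of 13941 TPM with an SD of 1.77, HOXA5 and HOXB8 lay near the top, and all housekeeping genes lay below an SD of 1.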

How the data were processed

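RNA was sequenced as polyadenylated transcripts on an Illumina NovaSeq. The submitters' processing notes name Trimmomatic 0.30, DESeq2 and build GRCh38.p14, without their roles, and the deposited table holds the authors' raw counts of reads per gene. The aligner, the counting tool and strandedness are not given in the sources used here. Of 36468 entries, 13161 were called NewGene and have no symbol. Where a symbol had several entries, the one with the largest total was used.

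Counts of the 6 vehicle libraries were divided by DESeq2 1.42.0 size factors, and TPM used union exon lengths of GENCODE 44, found for 19310 of 20069 symbols. Genes of 30 marker lists with a mean count of at least 10 were averaged as lists. The batch test used edgeR 4.0.16 (R 4.3.3) on 24 libraries with TMM factors, batch and treatment. Its p-values set differences between batches against the spread among the 4 libraries of a batch after treatment is allowed for. These 4 were differently treated cultures and not repeats, and all came from 1 cell line. Correlations used scipy 1.17.1. The span of 159 of 327 marker genes overlaps another annotated gene in the RefSeq table for GRCh38.p14, so that reads of such pairs could not be told apart.

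The lists were chosen with earlier results of these data known, and 4 of the 30 (choroid plexus, motile cilium, retina and pigment epithelium, and HOX) were added after these values were seen. Named from lists above 8 genes were the defining markers, the 3 highest by TPM, and the 2 widest and 2 narrowest spreads. All genes of shorter lists could be named, and so could the 15 highest genes by TPM and 10 each by spread and by loading. Some genes that this rule picked are not reported here. AQP1 and KCNE2 were named after their values were seen. Alternatives covered scaling, pseudocount, filters, tools, gene length and leaving out each batch.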

Additional observations from a re-analysis of the deposited data

Results flagged for a closer look

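In 38 values examined over the 6 vehicle libraries (the 7 markers and the list means among them), 3 had 1 library farther from the rest than Dixon's critical value at 95%, and chance alone sets about 1 in 20 groups (5%) apart. The mean level of the stratified epithelium list was 5.30 in batch 1 and between 3.47 and 4.13 in the others, a gap of 0.639 of the whole range. It rested on 2 genes that averaged 10 or more reads, and the keratins KRT5 and KRT14 that define the list were not among them. The mean of 6 endothelial genes was 4.00 in batch 3 and between 5.90 and 6.49 in the others, a gap of 0.765. The mean of 3 endoderm and liver genes was 1.60 in batch 6 and between 3.53 and 4.22 in the others, a gap of 0.735, at a summed level of at most 3.05 TPM per library. Among single marker genes that averaged 10 or more reads, 26 of 256 passed the same value, as did 2761 of 21011 entries (13.1%) of all genes with that minimum.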

How the results depend on the processing

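Of 513 values under another setting, 482 kept their direction and their side of the threshold or moved by less than the spread between batches. Levels and list means could not fail this when 1 of 6 libraries was left out, since a mean then always moves by less than the spread. The count of 482 is therefore no measure of how stable the spreads and correlations were. The share of entries with a spread above 1 depended on the filter, at 5.815% for a mean count of at least 100, 20.84% for a total of at least 10 and 20.64% with none but a total above 0, and lay between 7.092% (without batch 1) and 13.04% over the 6 sets of 5 libraries. Without batch 1 the spread of TUBB3 was 0.327 and that of ISL1 0.778, and without batch 4 that of SOX10 was 0.451. Among 256 list genes, spread moved beyond its limit in 59 without batch 1 and in 1 to 18 without another batch. The correlation of COL1A1 with SOX10 was -0.03709 on variance-stabilized counts. Leaving out 1 batch at a time, the correlation with COL1A1 ran from -0.8535 to 0.7994 for TUBB3, -0.3873 to 0.6613 for UCHL1, -0.8345 to 0.8125 for POU4F1, -0.759 to 0.7384 for ISL1, -0.4456 to 0.7611 for SOX10 and -0.3286 to 0.9432 for COL3A1. The highest value was without batch 1, except for SOX10 (without batch 6). The match of vehicle with treated levels ran from -0.175 to 0.9806 for SOX10, -0.02663 to 0.7763 for COL1A1, -0.15 to 0.8117 for COL3A1, 0.0589 to 0.862 for UCHL1 and 0.434 to 0.975 for ISL1. The correlation of TUBB3 was 0.9618 to 0.9982 with POU4F1 and 0.9176 to 0.993 with ISL1, and 5 libraries are too few for either to pass the adjustment. The cause of the other changes was not tested.

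Genes differing between batches numbered 16696, and 12602 (without batch 1) to 16876 (without batch 4) with 1 batch left out. There were 17945 by DESeq2's likelihood ratio test, 16512 on the treated libraries alone and 15874 without batches 2 and 4, a setting chosen after seeing the data. Of 229 marker genes called, 191 were still called without batch 1. No paired analysis was possible because the vehicle libraries form 1 group with 1 library per batch, and the batch was itself the term tested. The number of 6 libraries limits every correlation given here.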
